A study of Mus musculus with 5 samples.

Results

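Small nucleolar RNAs (snoRNAs) were chosen by name, as all genes whose single symbol in the platform annotation starts with Snord (box C/D) or Snora (box H/ACA). There were 51 such genes, 31 box C/D and 20 box H/ACA, among 19938 genes with a single symbol on the array. The RNA came from 5 wild-type NOD females aged 10 weeks, NOD being an inbred line prone to autoimmune diabetes. Each mouse was scanned by MRI, the pancreas was taken out directly afterwards, and CD45+ cells, the leukocytes of the tissue, were sorted by flow cytometry for 1 array per mouse. No treatment or control group is named, so the 5 mice formed 1 group, and the design related transcript levels to the MRI signal. That signal was the T2 relaxation time of the pancreas, which was 28.98, 30.02, 32.77, 35.24 and 35.3 ms in mice 5, 4, 3, 2 and 1.

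Box C/D snoRNAs guide ribose methylation of ribosomal RNA, carried out by fibrillarin (Fbl) together with Nop56, Nop58 and Snu13. Box H/ACA snoRNAs guide the conversion of uridine to pseudouridine, carried out by dyskerin (Dkc1) together with Nop10, Nhp2 and Gar1, and a few members of both classes are needed for cleavage of the rRNA precursor. In mammals most snoRNAs are not transcribed on their own but are cut out of the introns of host genes, many of which encode ribosomal proteins or are non-coding genes of the Snhg family.

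All 51 genes were found by gene identifier in the RefSeq gene table of the mouse assembly GRCm38.p6, and 50 of them lay inside at least 1 other gene. The exception was Snord118, the U8 RNA of large-subunit rRNA processing, which lay inside no protein-coding or long non-coding gene. Partial overlaps were not searched. The median gene length was 68 nucleotides for box C/D (45 to 148) and 125 nucleotides for box H/ACA (61 to 205). To show the shared setting, the starts of the host genes are given for the 6 members among the 8 of lowest p with a positive slope on T2 (below) that have 1 host with a promoter in the RefSeq table. Each is 80 bases, 40 on either side of the annotated start, on the strand of the gene. Capitals mark a tract of C followed by at least 4 further C or T that begins within 5 bases of the start, the kind of start through which translation of ribosomal protein mRNAs is tuned to growth signals. The windows are at chr19:8723447-8723526 (plus strand) for Snhg1, chr7:45128706-45128785 (minus) for Rpl13a, chr7:99483670-99483749 (minus) for Rps3, chr9:64173347-64173426 (plus) for Rpl4, chr4:132308638-132308717 (plus) for Snhg12 and chr3:86142629-86142708 (minus) for Rps3a1.
Snhg1, host of Snord22: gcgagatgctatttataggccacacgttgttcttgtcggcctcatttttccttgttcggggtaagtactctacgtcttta
Rpl13a, host of Snord33: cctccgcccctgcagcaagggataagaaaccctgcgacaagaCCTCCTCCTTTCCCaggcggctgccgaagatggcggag
Rps3, host of Snord15b: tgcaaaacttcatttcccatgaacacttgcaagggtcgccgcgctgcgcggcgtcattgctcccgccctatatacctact
Rpl4, host of Snord16a: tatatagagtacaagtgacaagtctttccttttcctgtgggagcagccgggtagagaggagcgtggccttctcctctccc
Snhg12, host of Snora16a: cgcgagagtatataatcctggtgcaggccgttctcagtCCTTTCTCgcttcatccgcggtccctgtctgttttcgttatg
Rps3a1, host of Snord73b: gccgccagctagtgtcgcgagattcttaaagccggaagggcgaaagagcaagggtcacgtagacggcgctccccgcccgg
The tract was 14 bases long at Rpl13a and 8 bases long at Snhg12, and these letters were not in that place at the other 4 starts. Over the hosts of all members, 31 of 43 host genes had a promoter in the table, and 15 of their 33 promoters (45.5%) held such a tract, against 6027 of all 32851 promoters (18.3%). Only the gene's own strand was searched, and a match of letters is a description of the annotated start, not a measured start site.

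The values were array intensities in log2 units after the authors' RMA normalization. Brightness depends on the probes as well as on the RNA, so the levels of different genes were not ranked as abundances. Median intensity differed little between the arrays (23.8 to 24.5 on the linear scale), and the pan-leukocyte gene Ptprc, which encodes CD45, averaged 11.06 ± 0.10 (SD, n = 5). None of 4 measured islet hormone genes passed the detection threshold, but 4 of 6 acinar enzyme genes did. The mean of 6 macrophage genes, all detected, ran against T2, at 8.92, 9.05, 8.52, 7.89 and 7.85 in mice 5, 4, 3, 2 and 1. So did the mean of 5 genes, all detected, that are known to be induced when tissue is dispersed, at 8.63, 8.20, 7.94, 7.65 and 7.49. The means of 5 T cell and 4 B cell genes had slopes on T2 within their errors, of 0.027 ± 0.050 and -0.033 ± 0.070 log2 units per ms (SE). They still differed between mice 2 and 1, of nearly equal T2, at 9.69 and 8.98 for T cell and 9.07 and 9.98 for B cell genes. The mean of 3 neutrophil genes had the largest SD of these lists (1.01), from 6.18 in mouse 4 to 8.85 in mouse 3, and did not follow T2. Within the dispersal list the slopes were unequal, at -0.384 for Hspa1a, -0.153 for Dnajb1, -0.110 for Jun, -0.095 for Fos and -0.010 for Egr1. Within the macrophage list they were -0.225 to -0.278 for Adgre1, C1qa, C1qb and C1qc, but -0.071 for Csf1r and -0.066 for Cd68. The means of both lists move with the T2 axis on which every slope below rests. Their part in the snoRNA values was not tested. In bulk RNA of sorted cells, fewer cells of one type and less RNA per cell cannot be told apart. The sample numbers run from the highest to the lowest T2, so anything that followed that order cannot be told apart from T2.

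A gene counted as detected when its mean over the 5 mice was at least 6 log2 units, the threshold that is part of how the set was chosen. Of the 51 snoRNA genes, 33 were detected (64.7%), against 33.0% of the 19887 other genes. The detected share was 18 of 31 box C/D genes (58.1%) and 15 of 20 box H/ACA genes (75%). The median length was 80 nucleotides for the detected and 62 for the undetected box C/D genes, and 129 and 113 for box H/ACA. The members nearest the threshold on its upper side were Snora33 (mean 6.002), Snord82 (6.11), Snora75 (6.18) and Snora30 (6.19). Nearest on its lower side were Snora21 (5.96), Snora62 (5.75), Snord37 (5.72) and Snord73a (5.63). Among the 18 undetected genes, which had no test, 11 had a positive and 7 a negative slope on T2. With no threshold, 33 of all 51 snoRNA slopes were positive (64.7%), against 44.6% of those of the 19887 other genes. No share was computed for other undetected genes alone, so the count of 11 has no direct background. There were 5 members with 2 probe sets each (Snora3, Snora21, Snora30, Snord58b and Snord118), and in none did the sets differ by more than 1 log2 unit. The 2 sets of Snora30, like those of Snord118, held identical values on all 5 arrays, so they give no separate check.

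The 10 detected members of highest mean intensity were Snord15b, Snord14e, Snord33, Snord22, Snord104, Snord57, Snord55, Snora23, Snora52 and Snord16a, with means between 8.82 and 11.64. Of these 10, 8 are box C/D. Of the highest that are not described with the slopes below, Snord104 read 9.47, 9.69, 10.21, 9.88 and 9.81 in mice 5, 4, 3, 2 and 1. The box H/ACA Snora23, from an intron of the import receptor gene Ipo7, read 8.93, 8.80, 9.29, 9.21 and 8.81 in the same order of mice. Neither sequence of values followed T2, with mouse 3 the highest in both.

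The spread between mice was described by the SD over the 5 arrays. The median SD was 0.27 log2 units for the 33 detected snoRNA genes, against 0.10 for the 6570 other detected genes. Box C/D genes had a median SD of 0.37 and box H/ACA genes 0.17. The largest SDs were those of Snord47 (0.77), Snord14e (0.68), Snord82 (0.68) and Snord33 (0.60), all box C/D. The arrays ordered the snoRNAs alike, with Pearson correlations between pairs of arrays of 0.92 to 0.98 across the 33 genes, against 0.96 to 0.98 across all 6603 detected genes. Those correlations are across genes, which share probes and brightness between arrays and are not independent replicates.

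Identical values on several arrays, which lower the measured spread, were found among snoRNA genes too. Of the detected ones, 6 of 33 had the same value on at least 3 arrays (18.2%), against 38.3% of other detected genes. Of these 6, 3 genes (9.09% of the 33) had 1 value on all 5 arrays, a higher share than the 3.24% of other detected genes. They were Snord35a, Snord35b and Snord95, at 6.58, 7.17 and 6.37. They therefore hold no information on differences between mice, and their slopes of 0 count as neither positive nor negative. Snora3 was nearly as flat, between 7.41 and 7.48.

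**Figure D1:**
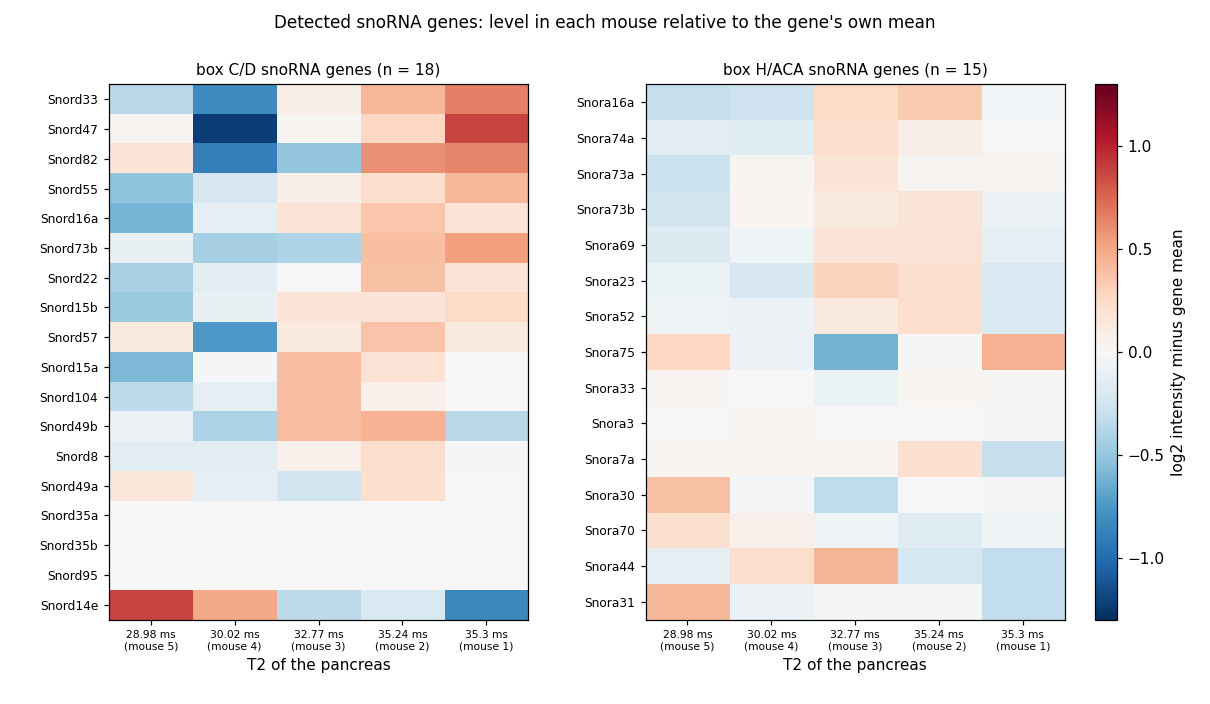
Deviation of each detected snoRNA gene (rows, box C/D in the left panel and box H/ACA in the right) from its own mean over the 5 mice, in log2 units, with mice ordered by T2 (columns, ms). Of the 18 box C/D genes, 14 were below their mean in mouse 4 and 14 were above it in mouse 2, whereas 11 of the 15 box H/ACA genes were below their mean in mouse 1.

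Taken mouse by mouse, most box C/D genes lay below their own mean in the 2 mice of lowest T2. In mouse 5, 5 of 18 lay above their own mean and 10 below, and in mouse 4, 1 lay above and 14 below. In mouse 3, 11 lay above and 4 below, in mouse 2, 14 above and 1 below, and in mouse 1, 10 above and 5 below. The lowest value of a box C/D gene was in mouse 4 for 7 genes and in mouse 5 for 6. The mean over the 18 genes was 8.21, 8.06, 8.36, 8.56 and 8.48 in mice 5, 4, 3, 2 and 1, so the means of the 3 mice of higher T2 lay above those of the other 2. Of the 15 box H/ACA genes, 6 lay above and 9 below their means in mouse 5, 7 above and 8 below in mouse 4, 9 above and 6 below in each of mice 3 and 2, and 4 above and 11 below in mouse 1. Their mean over 15 genes was 7.23, 7.19, 7.28, 7.30 and 7.15 in the same order. Of the other detected genes, 68.4%, 59.8%, 35.3%, 40.9% and 50.5% were above their own mean in mice 5, 4, 3, 2 and 1, so most lay above it in the 2 mice of lowest T2.

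The relation to T2 was fitted gene by gene over all 6603 detected genes with limma, as the slope of log2 intensity in log2 units per ms. No snoRNA gene passed an adjusted p of 0.05, nor did any other gene (0%): the lowest adjusted p was 0.0951 over all genes and 0.333 among snoRNAs. Before adjustment, 349 genes had a p under 0.05. Of these, 5 snoRNA genes had a positive and 2 a negative slope, against 0.624% of other genes positive and 4.58% negative. Of the 33 detected snoRNA genes, 22 had a positive slope (66.7%) and 8 a negative one, against 28.7% positive and 68.1% negative among other genes. The median slope was 0.03 for snoRNAs and -0.01 for the other genes. These counts depend on the scaling of the arrays: after a further quantile normalization, 27 of 33 snoRNA slopes were positive (81.8%) and 56.0% of those of other genes. That count takes in the 3 genes of 1 value on all arrays, whose sign then comes from the rescaling alone. Without such genes, 24 of 30 snoRNA slopes (80%) and 54.5% of those of other genes were positive. The snoRNA median was 0.055 without mouse 1, 0.015 without mouse 2, 0.020 without mouse 4 and 0.016 without mouse 5. That of the other genes was -0.0008 without mouse 5, with 43.0% of slopes positive. In 17 snoRNA genes the slope was positive and stayed so with each mouse left out in turn, and in 5 it stayed negative, against 8.63% and 30.6% of other genes. Of the 33, Snord55 was the 1 snoRNA gene with a higher level at each step of T2, a pattern found in 0.0761% of other genes. No snoRNA gene had a lower level at each step, against 1.16% of other genes. The last step, from 35.24 ms in mouse 2 to 35.3 ms in mouse 1, is very small. Snord55 was among the lowest p-values when the set was proposed, so its ordering is no independent finding.

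**Figure D2:**
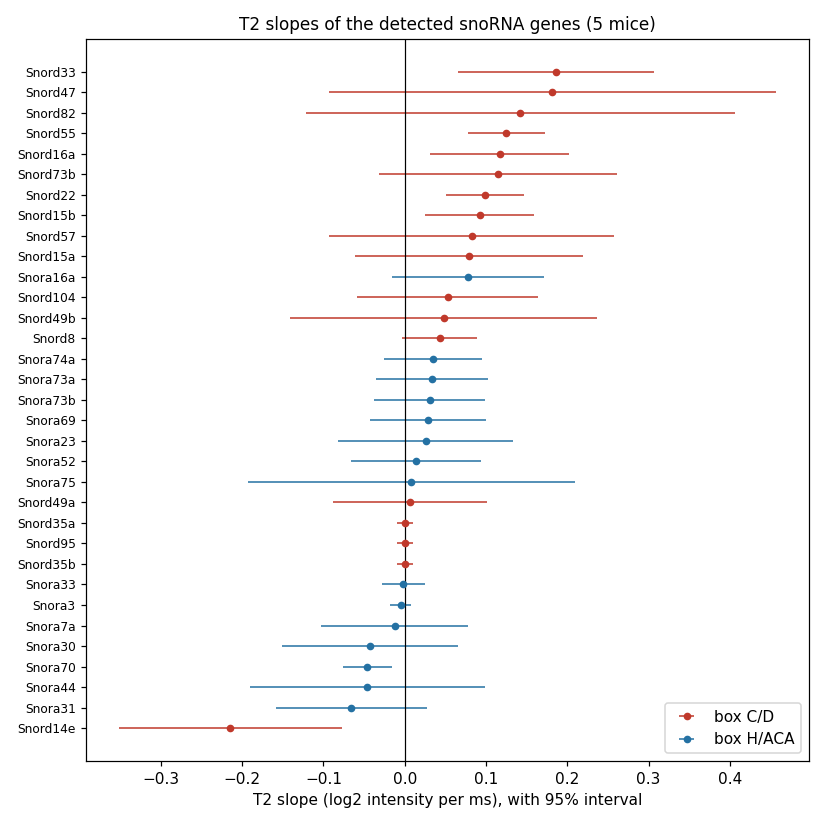
Slope of log2 intensity on T2 (log2 units per ms, horizontal axis) for the 33 detected snoRNA genes, with 95% intervals from limma and the 2 box classes in separate colours. Box C/D slopes lie mainly right of 0, up to 0.19 for Snord33, with Snord14e at -0.21 the exception; box H/ACA slopes lie on both sides.

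Of the 22 positive slopes, 14 were those of box C/D genes. Of 18 detected, 14 had a positive slope, 1 a negative one and 3 a slope of 0, and the median was 0.081 (quartiles 0.016 and 0.116). The box H/ACA genes had 8 positive and 7 negative slopes and a median of 0.008. With a further quantile normalization, and without the 3 box C/D genes of 1 value, the counts were 14 positive and 1 negative for box C/D and 10 and 5 for box H/ACA, so the sign of neither median turned. The box H/ACA median was 0.027 without mouse 1, -0.006 without mouse 2, 0.001 without mouse 4 and 0.016 after that normalization. With a detection threshold of 7, the 7 box H/ACA genes left had 6 positive and 1 negative slope and a median of 0.031. The 12 box C/D genes left had 10 positive and 1 negative slope and a median of 0.081. The mixed signs of box H/ACA slopes therefore rest mostly on genes of lower intensity. The difference between the classes was not tested, as the set was proposed with results of these data known.

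The 5 lowest p-values with a positive slope were all of box C/D genes. Snord55 read 8.75, 9.05, 9.35, 9.50 and 9.70 in mice 5, 4, 3, 2 and 1, in the order of T2 throughout. Its slope was 0.125 ± 0.017 (SE), which makes the fitted level at the highest T2 1.73 times that at the lowest (95% interval 1.40 to 2.12; limma adjusted p = 0.333). Snord22, the U22 RNA that is needed in Xenopus for small-subunit rRNA and is encoded in Snhg1, read 9.41, 9.68, 9.84, 10.21 and 10.01. Mouse 2 exceeded mouse 1, and the mice were otherwise in the order of T2. The fitted ratio was 1.54 (1.25 to 1.90) at a limma adjusted p of 0.40. These 2 genes were among the lowest p-values of positive slope when the set was proposed, so their place here is no independent finding.

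Snord33, which lies in an intron of Rpl13a and is known from rodent cell lines for a part in the response to excess lipid, had the steepest positive slope. It read 9.53, 9.08, 9.98, 10.32 and 10.55 in mice 5, 4, 3, 2 and 1. Mice 5 and 4 lay below the other 3. The slope was 0.186 ± 0.043 (SE) and the fitted ratio 2.26, with a wide interval of 1.33 to 3.84 (limma adjusted p = 0.601). Snord15b, a guide from the ribosomal protein gene Rps3, read 11.16, 11.55, 11.81, 11.81 and 11.89, with a slope of 0.092 ± 0.024. Snord16a, from Rpl4, read 8.21, 8.70, 9.01, 9.18 and 8.99, with a slope of 0.117 ± 0.030. In both, mouse 5 was the lowest and mouse 4 the next, and both had a limma adjusted p of 0.668. Without mouse 5 the slope was 0.054 for Snord15b and 0.070 for Snord16a.

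Another 3 members completed the 8 of lowest p with a positive slope, all at a limma adjusted p of 0.828. Snord8, which overlaps Chd8 and Gm26590, read 7.55, 7.54, 7.75, 7.91 and 7.67 in mice 5, 4, 3, 2 and 1. Snora16a, from Snhg12, was the 1 box H/ACA gene among them and read 8.16, 8.19, 8.72, 8.80 and 8.42. In both, the 2 mice of lowest T2 were the lowest 2. Snord73b, from Rps3a1, did not show that split, with 6.31, 5.99, 6.01, 6.81 and 6.95 in the same order. The slope of Snord8 was 0.043 over all mice and 0.027 without mouse 2, and that of Snord73b was 0.114 over all mice and 0.183 without mouse 5.

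The 2 box C/D genes of largest spread besides Snord14e had positive slopes that were poorly determined. Snord47, which lies in the non-coding growth-arrest gene Gas5, read 6.83, 5.57, 6.83, 7.07 and 7.68 in mice 5, 4, 3, 2 and 1, with a slope of 0.181 ± 0.098 (SE). Snord82, from the nucleolin gene Ncl, read 6.29, 5.22, 5.60, 6.70 and 6.74, with a slope of 0.142 ± 0.094. In both, mouse 4 was the lowest, and the 95% intervals of the slopes, -0.09 to 0.46 and -0.12 to 0.41, held 0. Without mouse 4 the slopes were 0.091 and 0.080, and without mouse 5 they were 0.335 and 0.298.

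Snord14e was the 1 detected box C/D gene with a negative slope. It is a U14 RNA, which base-pairs with small-subunit rRNA and is needed in yeast for its processing, and lies in an intron of Hspa8, the constitutive Hsc70 chaperone. It read 11.41, 11.01, 10.18, 10.33 and 9.69 in mice 5, 4, 3, 2 and 1, with the 2 mice of lowest T2 above the other 3. The slope was -0.215 ± 0.049 (SE), a fitted level at the highest T2 of 0.391 times that at the lowest (95% interval 0.215 to 0.711; limma adjusted p = 0.585). Its host Hspa8 read 11.42, 11.12, 11.11, 11.03 and 11.002 in the same mice, with a slope of -0.048 ± 0.016. The mean of the dispersal-induced genes given above moved the same way as both, and the part of those genes in the values of Snord14e was not tested. Without Snord14e the mean of the other 17 box C/D genes had a slope of 0.080 ± 0.016, against 0.064 ± 0.017 with it.

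The other negative slopes were those of box H/ACA genes. Snora70, from the ribosomal protein gene Rpl10, had the lowest p of them and read 6.58, 6.44, 6.31, 6.20 and 6.31 in mice 5, 4, 3, 2 and 1. Its slope was -0.046 ± 0.011 (SE), at a limma adjusted p of 0.601. Snora31, from Tpt1, which encodes the translationally controlled tumour protein, read 7.22, 6.71, 6.77, 6.77 and 6.47, with a slope of -0.066 ± 0.033. Here mouse 5 was the highest and mouse 1 the lowest, with 3 near-equal mice between them, and without mouse 5 the slope was -0.020. The slopes of Snora30 (-0.043 ± 0.038), Snora44 (-0.046 ± 0.051), Snora7a (-0.013 ± 0.032), Snora3 (-0.005 ± 0.005) and Snora33 (-0.002 ± 0.009) were close to or under their standard errors. Snora73a and Snora73b, the U17 RNAs of small-subunit rRNA processing from Snhg3, had slopes of 0.034 ± 0.024 and 0.031 ± 0.024, which are also close to their errors.

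Members that share a host did not all share a slope. From Snhg12, Snora16a had a slope of 0.078 ± 0.033 and Snora44 of -0.046 ± 0.051. From Ncl, Snord82 had a slope of 0.142 ± 0.094 and Snora75 of 0.008 ± 0.071. From Rps3, Snord15b had a slope of 0.092 ± 0.024 and Snord15a of 0.079 ± 0.050, but without mouse 5 they had 0.054 and 0.009. From Rpl13a, Snord33 had the steepest positive slope while Snord35a had 1 value on all arrays. These differences between members were not tested.

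Host mRNAs were compared with their snoRNAs where both were detected. Of the 31 detected members with 1 host, the host was tested for 14, from 12 hosts, and the snoRNA slope was above that of its host in 7 and below it in 7. By sign alone, the split ran along the box class with 2 exceptions. Among box C/D pairs only Snord14e lay below its host, and among box H/ACA pairs only Snora23 lay above. Several box H/ACA differences were small beside the errors, as for Snora75 (0.008 ± 0.071) against Ncl (0.020 ± 0.038). Another was Snora33 (-0.002 ± 0.009) against Rps12 (0.004 ± 0.026). Among box C/D pairs, the slope of Snord82 (0.142 ± 0.094) was poorly determined. None of these differences was tested. The slope of Rps3 was -0.039 ± 0.019 (SE), against the positive slopes of Snord15b and Snord15a given above. That of Rpl4 was -0.012 ± 0.009, against 0.117 for Snord16a, and that of Nop56 was -0.012 ± 0.006, against 0.082 ± 0.062 for Snord57. Rps3 had the same value in mice 2, 3 and 4, and Rpl4 in mice 1, 2 and 3, so both host slopes rest on few mice. The slope of Snord57 was 0.020 without mouse 4 and 0.178 without mouse 5. Over all hosts tested, 7 of 23 slopes were positive and 16 negative, with a median of -0.01, which is also the median of all other genes to this precision. After a further quantile normalization 12 were positive and 11 negative, with a median of 0.0003, and without mouse 5 the median was 0.002. A snoRNA's probes match the spliced-out snoRNA and the unspliced host transcript alike, which the array cannot separate.

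**Figure D3:**
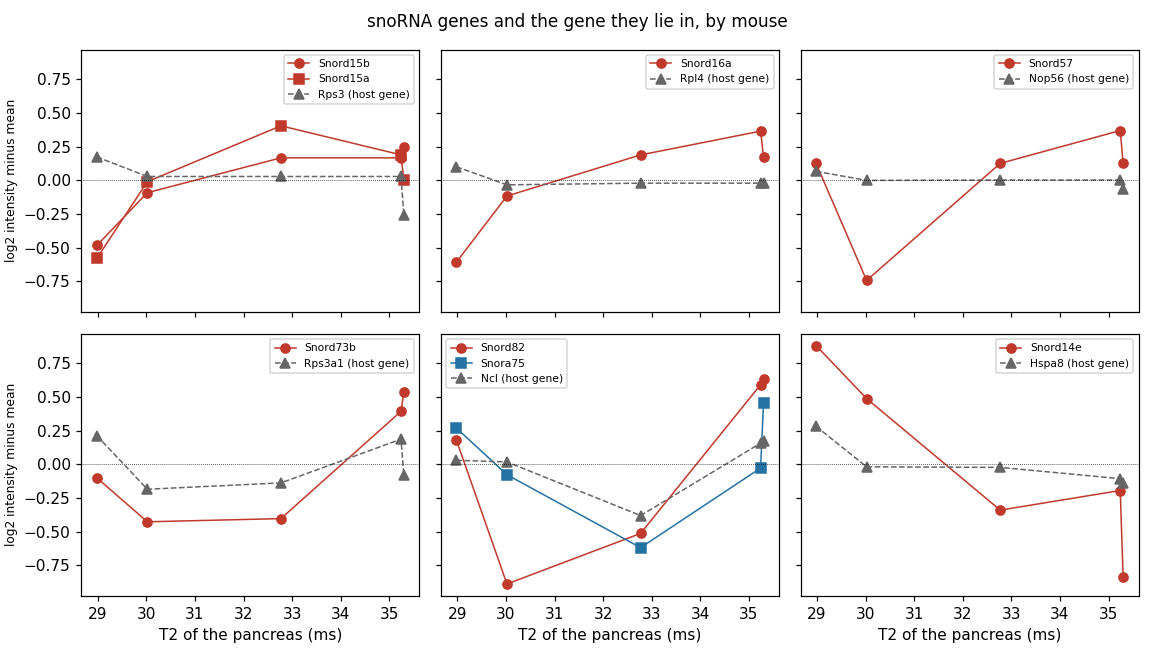
Log2 intensity of snoRNAs (red for box C/D, blue for box H/ACA) and of their host mRNAs (grey, dashed) against T2 (ms), as deviation from each gene's own mean over the 5 mice, 1 point per mouse and 1 panel per host. Of the 12 hosts compared, only Rps3, Rpl4, Nop56, Rps3a1, Ncl and Hspa8 are drawn. They hold every box C/D pair, but Snora75 is the only box H/ACA gene shown. Snord15b and Snord16a are lowest in mouse 5, where the mRNAs of Rps3 and Rpl4 are highest, while Snord14e and Hspa8 are both highest in mouse 5.

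The protein partners of snoRNAs had no common direction. Of 20 measured core proteins and assembly factors, 13 were detected, of which 7 had a positive and 5 a negative slope on T2. The core proteins of both classes were near 0: Fbl, the methyltransferase, had a slope of -0.012 ± 0.008 (SE), Nop58 of 0.019 ± 0.031, Dkc1, the pseudouridine synthase, of -0.003 ± 0.029, and Gar1 of 0.015 ± 0.012. Snu13, the protein that binds the kink-turn of box C/D RNAs, was the exception. It read 9.68, 9.27, 9.05, 8.73 and 8.53 in mice 5, 4, 3, 2 and 1, lower at each step of T2, with a slope of -0.151 ± 0.020. Its fitted level at the lowest T2 was 1.94 times that at the highest (limma adjusted p = 0.333), the opposite direction to most box C/D RNAs.

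**Figure D4:**
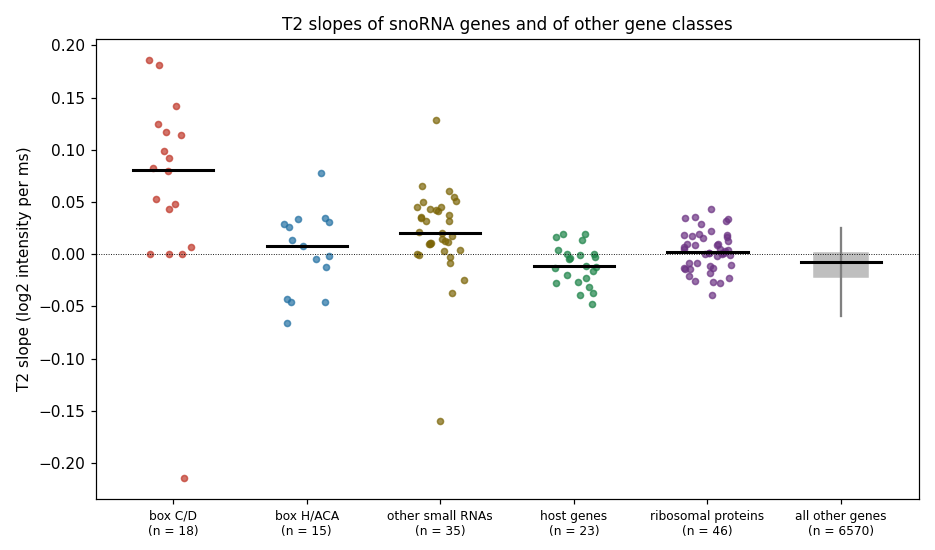
T2 slopes (log2 units per ms) of detected genes by class, each point 1 gene and each bar the median of its class; all other genes, which include the hosts and the classes beside them, are drawn as their median with a box over the quartiles and a line from -0.059 to 0.025 that leaves out the extreme 5% of slopes at each end. The box C/D median of 0.081 lies above those of box H/ACA genes (0.008), other small RNAs (0.020), host genes (-0.01), ribosomal protein genes (0.002) and all other genes (-0.01). The ribosomal protein class leaves out Rpl symbols of a single digit alone, such as Rpl4.

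Other small RNA genes also had mainly positive slopes. Of 35 detected among 315, 28 were positive and 6 negative, with a median of 0.020, and after a further quantile normalization 30 were positive and 5 negative. Of the 25 detected microRNA genes 20 were positive, as were 8 of the 10 others. Rnu3a, a U3 RNA, is a box C/D snoRNA in kind whose symbol lies outside the naming rule, and its slope of 0.128 ± 0.035 (SE; limma adjusted p = 0.702) was among the values of the box C/D genes above. The Cajal body RNAs Scarna13 and Scarna17 had slopes of 0.020 and 0.011, and Rmrp, Rpph1 and Rn7sk, which serve in RNA processing and in transcription control, had 0.012, -0.003 and -0.009. Ribosomal protein genes, many of which are snoRNA hosts, were taken by a naming rule that missed Rpl symbols of a single digit alone, such as Rpl4. Those taken had 29 positive and 17 negative slopes among 46 detected and a median of 0.002. That median and count turned with single mice: without mouse 2 there were 14 positive and 32 negative slopes and a median of -0.006, and without mouse 4 the median was -0.004. It was 0.014 without mouse 1, 0.018 without mouse 5 and 0.016 with array weights, where 40 slopes were positive and 6 negative.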

How the data were processed

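CD45+ cells of 5 mice gave 1 array each; RNA was extracted with TriZol and labelled with biotin, per the labels' protocols. The authors deposited linear intensities per probe set. The submitters' processing notes name RMA and Affymetrix Power Tools, and their versions and the genome build were not given in sources used here. In general RMA corrects background, quantile normalizes arrays and summarizes probes, and can give equal values on several arrays. Depth does not apply to arrays; their number (5) limits the precision.

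Intensities were taken to log2. Of 35556 probe sets, 21789 have 1 symbol; for each gene the set of highest mean was kept. The snoRNA genes had 56 probe sets, and 41 further sets that list a snoRNA beside other symbols were left out. Genes with a mean of at least 6 were fitted on T2 with limma 3.58.1 in R 4.3.3 (lmFit, eBayes; two-sided, Benjamini-Hochberg over 6603 genes), which was first tested on simulated data. The mice are separate per the labels, and no date or batch is given.

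The members and all lists were chosen with earlier results of these data known. Members named were those of highest mean, lowest p in each direction, nearest the threshold, and largest and smallest SD, with their hosts, the snoRNP proteins and other small RNAs. Hosts are RefSeq genes (GRCm38.p6) spanning the member; that table gives no strand, so overlap ignored it. Alternatives were other filters, probe-set rules, scalings, a rank of T2, limma settings, equal values left out, and each mouse left out.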

Additional observations from a re-analysis of the deposited data

Results flagged for a closer look

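In 2 of the 30 snoRNA genes chosen to be named, 1 mouse stood far from the other 4 relative to the whole range. Chance flags about 1 gene in 20, a rate that takes no account of equal values. Snord35a, Snord35b and Snord95 are among the 30 but, with 1 value on all 5 arrays, could not be flagged. Snord57, described next, had the same value in mice 1, 3 and 5. Snord57, from Nop56, read 9.05 in mouse 4, against 9.92 to 10.16 in the other mice, a gap of 0.781 of its range. Snora33, from Rps12, read 5.91 in mouse 3, against 6.01 to 6.04 in the other mice, a gap of 0.769 of its range.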

How the results depend on the processing

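No paired analysis was possible because the mice form 1 group. No snoRNA gene passed an adjusted p of 0.05 under any alternative run, and the lowest was 0.060 for Snord55 with limma, once genes of equal values on 3 or more arrays were left out. Other genes did pass: 35 of 4079 in that setting, 4 after a further quantile normalization, 4 with array weights and 3 with a detection threshold of 7. The slopes of Snord55, Snord22, Snord33, Snord15b, Snord16a, Snord8, Snora16a and Snord73b stayed positive and those of Snord14e, Snora70, Snora31 and Snora44 negative under every alternative run. With a detection threshold of 7, the number of detected snoRNA genes was 19, against 33, and the median slope 0.0479, against 0.0305. With thresholds of 7, 6 and 5 and with none, 84.2%, 66.7%, 65.9% and 64.7% of snoRNA slopes were positive. The shares for other genes were 25.2%, 28.7%, 34.3% and 44.6%, so the gap narrowed as the threshold was lowered. Leaving out 1 mouse at a time gave medians from 0.0151 to 0.0553. Some slopes near 0 changed sign. After a further quantile normalization, Snora3 had a slope of 0.00745 and Snora33 of 0.00596; with array weights, Snora33 had 0.000661 and Snora7a 0.00638. Over the fits without 1 mouse each, slopes ran from -0.0590 to 0.0108 for Snora30, from -0.00614 to 0.00547 for Snora33 and from -0.0476 to 0.0268 for Snora7a. The cause of these changes was not tested. Signal near background limits members close to the threshold. The alternatives without Snord14e, and without genes of 1 value on all arrays, were chosen after seeing the data.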
